A study of Homo sapiens with 124 samples.

Results

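Contacts of 10 myeloid genes with the nuclear lamina were followed in single cells of a human leukaemia line. The genes encode granule proteins (MPO, ELANE, CTSG and LYZ), receptors (KIT, FLT3 and CSF3R) and surface proteins of blood cells (CD34, PTPRC and CD33). They were listed by name, and their windows were the 100 kb bins of the genome that overlap the hg19 span of each, with flanks of 1 Mb on both sides. At ELANE the low flank ended after 0.8 Mb, at the start of chromosome 19. KIT, FLT3 and PTPRC each overlapped 2 bins and the other 7 genes 1 bin each. The frequency of a gene is that of the bin with its midpoint, and the second bins are given separately. The 10 windows held 211 bins of the 30376 in the table, and 210 of them were among the 26426 usable bins of the genome, meaning that all cells had a number there and some cell had a read. All 10 genes had a usable bin, and none was lost to a filter on low values.

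The cells were KBM7, a near-haploid line from a chronic myeloid leukaemia, and every sample was a haploid cell of the same clone, clone 14, that carried the bacterial methyltransferase Dam fused to LaminB1. Dam had been stabilised with 0.5 nM Shield1 for 15 h, and sorting kept the smallest 2% of the cells that were double-positive for Fucci, a pair of fluorescent cell cycle markers. The values are ratios of observed to expected reads per bin, and 118 of the 124 cells were analysed as 1 group. The labels name no culture and no comparison group, so the results below compare places in the genome within the same cells, and no p-value was computed.

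The nuclear lamina is a protein mesh under the inner nuclear membrane, and long stretches of chromatin with few active genes tend to lie against it. Dam-LaminB1 methylates adenines in GATC motifs of the DNA that comes near the lamina, so that methylated sites record contact in the living cell. Granulocyte precursors express the genes of granule proteins strongly, whereas KIT, FLT3 and CD34 are typical of earlier progenitors, CD33 of the myeloid lineage and PTPRC of nearly all white blood cells. Expression was not measured here, and 1 clone of a leukaemia line stands for no normal stage of myeloid development.

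A bin was counted as in contact in a cell when its ratio was 1 or more, and its contact frequency is the percentage of the 118 cells in contact. Recovered reads per cell numbered 28372 to 385661, with a median of 135782, and 33.0% ± 5.47 of the usable bins were in contact per cell (SD, n = 118). In the median bin, a ratio of 1 stood for 5.63 reads in the median cell, and in 14 cells it stood for under 3 reads. Cells numbered 96 to 124, 28 in all, had a mean contact share of 36.5%, against 31.9% in the 90 cells numbered 1 to 94. The labels do not name the 2 ranges of numbers as batches, and values are given for each range at several results below. Intervals are exact Clopper-Pearson intervals at 95% and cover the counting of cells only. Where 0 of 118 cells were in contact, the true frequency could still be up to 2.54% (3 counts) or 3.08% (the exact upper limit).

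The promoters of 3 genes are shown, namely those of the most often contacted gene (CTSG), the next one (KIT) and a gene free of contact inside contacted flanks (CD34). They come from RefSeq on GRCh38.p14, in which 7 of the 10 genes had a promoter entry, and each runs from 250 bases before the annotated gene start to 50 bases after it. The strands and positions are chr14:24576201-24576500 on the minus strand for CTSG, chr4:54657707-54658006 on the plus strand for KIT and chr1:207911076-207911375 on the minus strand for CD34. Capitals mark GATC, the palindromic motif that Dam methylates, which reads the same on both strands.
CTSG: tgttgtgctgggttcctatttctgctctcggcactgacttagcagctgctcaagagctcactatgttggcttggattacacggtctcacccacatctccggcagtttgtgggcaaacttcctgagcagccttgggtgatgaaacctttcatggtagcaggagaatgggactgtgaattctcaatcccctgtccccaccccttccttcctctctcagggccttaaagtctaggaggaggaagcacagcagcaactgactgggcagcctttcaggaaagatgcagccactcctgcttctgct
KIT: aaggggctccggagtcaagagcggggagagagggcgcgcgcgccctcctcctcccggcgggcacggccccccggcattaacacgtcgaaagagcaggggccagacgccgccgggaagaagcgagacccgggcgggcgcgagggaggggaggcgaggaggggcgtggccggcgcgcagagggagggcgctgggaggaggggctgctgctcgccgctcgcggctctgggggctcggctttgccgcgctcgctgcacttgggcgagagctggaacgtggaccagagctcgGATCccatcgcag
CD34: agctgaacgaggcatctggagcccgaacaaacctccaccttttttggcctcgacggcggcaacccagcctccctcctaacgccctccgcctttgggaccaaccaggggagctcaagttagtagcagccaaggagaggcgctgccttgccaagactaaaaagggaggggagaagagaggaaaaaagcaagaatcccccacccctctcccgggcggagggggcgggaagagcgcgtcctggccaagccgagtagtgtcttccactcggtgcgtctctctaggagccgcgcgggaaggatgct
The KIT promoter held 1 GATC, close to its 3′ end, and the CTSG and CD34 promoters held 0. Of 35116 promoters of the same length, 41.7% held at least 1 GATC. The CTSG promoter had 3 CG dinucleotides, fewer than most, since 18.2% of promoters had fewer. KIT had 38, with 90.1% of promoters below it, and CD34 had 19, with 57.1% below it. Each promoter is a small piece of its 100 kb bin, and the table has no value for the promoter alone.

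Contact with the lamina was rare at most of the genes. The bins of 8 of the 10 genes were in contact in 1% of the cells or fewer, whereas 29.7% of all usable bins were that low. At 6 genes (ELANE, LYZ, FLT3, CD34, CD33 and CSF3R) no cell was in contact, against 22.3% of all usable bins. These counts depend on the contact value, since at a ratio of 0.5 in place of 1 they were 4 genes at 1% or fewer, against 11.9% of all usable bins, and 1 gene, ELANE, at 0 cells, against 4.95%. With each cell thinned to 50000 reads, 8 genes were at 1% or fewer and 4 at 0, and the share of all bins at that depth was not computed. CTSG was the 1 gene at 20% of cells or more, where 48.9% of the usable bins of the genome lay. The median frequency over the 10 genes was 0%, against 17.8% over all usable bins. The chromosomes of the genes differed in this respect. Their median frequency was 0% for ELANE and CD33 (chromosome 19) and 0.847% for MPO (chromosome 17), the same as at these genes. It was 5.08% for CD34, PTPRC and CSF3R (chromosome 1), 12.7% for LYZ (12) and 17.8% for CTSG (14). For FLT3 (13) it was 34.7%, and for KIT (4) 53.4%.

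In order of frequency, CTSG came first with 49 of 118 cells, KIT second with 8, and MPO and PTPRC followed with 1 cell each. CTSG without KIT was in contact in 46 cells and KIT without CTSG in 5, so that CTSG held 90.2% of the cells in which these genes differed (95% interval 78.6 to 96.7%). KIT against MPO was 8 cells to 1, or 88.9% (51.8 to 99.7%). MPO and PTPRC did not differ beyond counting error, with 1 cell each, nor did PTPRC and the 6 genes at 0. The last 6 genes were tied.

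The windows around the genes were also poor in contact. Of the 210 usable window bins, 99 were at 0 cells, which is 47.1%, against 22.3% in the genome. Another 36 bins, or 17.1%, were in contact in 20 to under 80% of the cells, against 33.9% in the genome, and 0 bins reached 80%, against 15.1%. Averaged over the 10 windows, 10.3% ± 4.88 of the bins of a cell were in contact (SD, n = 118), with a lowest cell at 0.952%, a median of 9.42% and a highest cell at 25.0%. Relative to the contact share of the same cell's whole genome the difference was -22.7 ± 4.71 percentage points, and it was negative in all 118 cells. The window mean was 8.81% for cells 1 to 94 and 15.1% for cells 96 to 124. By role, granule windows averaged 12.5% ± 5.99, receptor windows 5.98% ± 6.88 and surface windows 11.7% ± 7.93, and most of it lay at CTSG and LYZ, at KIT and at CD34.

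**Figure D1:**
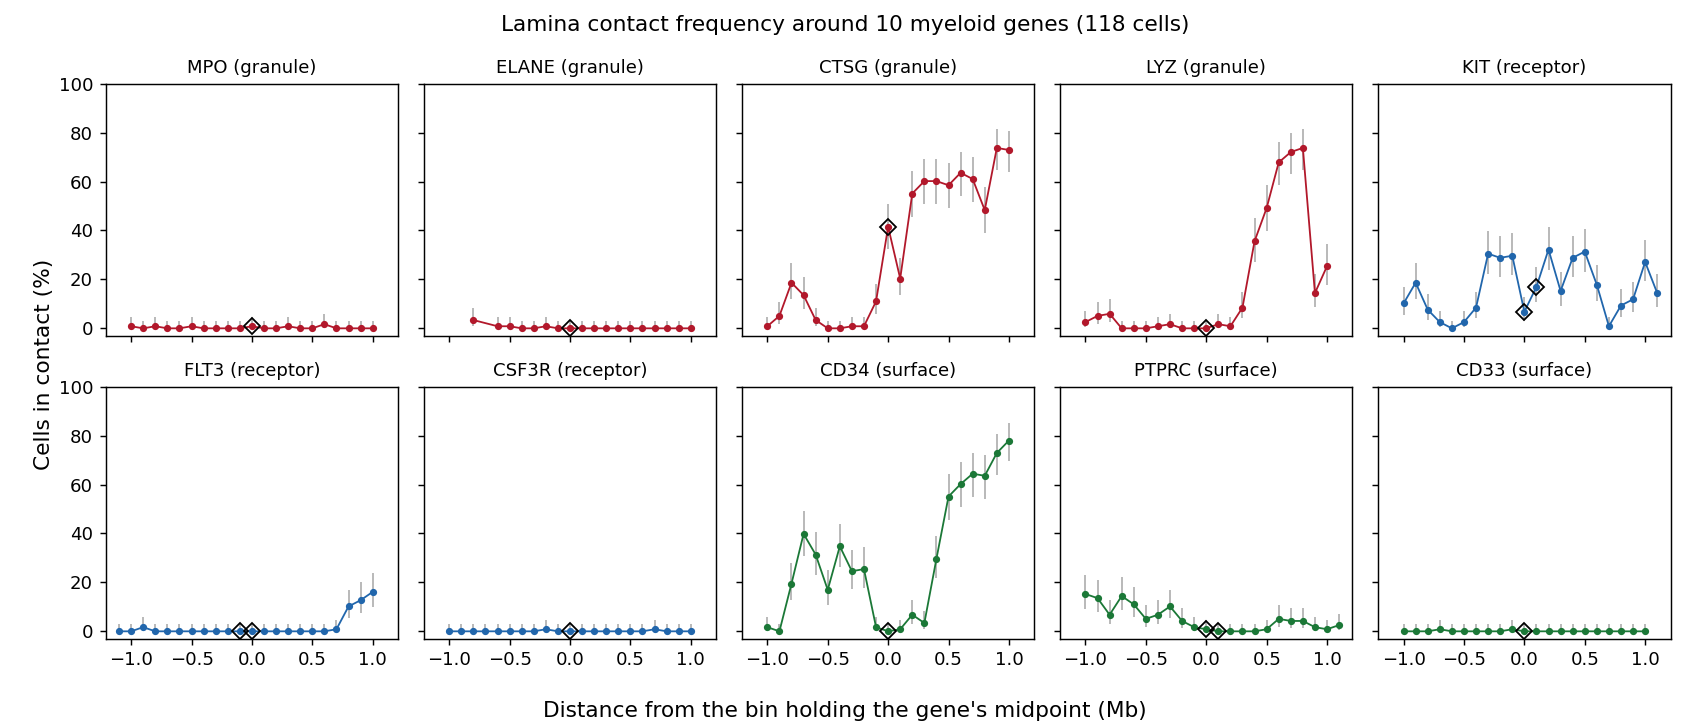
Contact frequency (percentage of 118 cells, vertical axis) of each usable bin within 1 Mb of the gene (distance in Mb, horizontal axis). Diamonds mark the bins that overlap the gene, grey bars are exact 95% intervals, and colours separate granule (red), receptor (blue) and surface (green) genes. MPO, ELANE, CSF3R and CD33 are flat near 0, CTSG and LYZ lie beside contacted stretches on the high-coordinate side, KIT lies between modest peaks, and CD34 lies at 0 between contacted flanks.

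Among the granule genes, MPO and ELANE lay in surroundings nearly without contact, and both equalled the median frequency of their chromosomes. MPO encodes myeloperoxidase, which makes hypochlorous acid in neutrophils. Its bin, chromosome 17 from 56300001 to 56400000, had reads in 13 of 118 cells, and its ratio was 0 in the lowest and the median cell and 1.10 in the highest. That highest value, from 2 reads in cell 12, was its single contact (0.847%, interval 0.0215 to 4.63%). The contact was gone without the 14 cells in which a ratio of 1 stands for under 3 reads. In the MPO window 15 of 21 bins were at 0, the highest reached 1.69%, and 114 cells had no contact in it. The peroxidase genes EPX and LPO are among the next genes on the low side in RefSeq on GRCh38.p14, and that side of the window stayed at or below 0.847%.

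ELANE encodes neutrophil elastase, a serine protease of the azurophil granules. Its bin, chromosome 19 from 800001 to 900000, was in contact in 0 of 118 cells, and it had 15 reads in 10 cells, with a highest ratio of 0.463. Of its 18 usable window bins 14 were at 0, and the first 100 kb of the chromosome reached the highest frequency, 3.39%. That end bin, with 4 cells in contact, had a highest ratio of 46.4, against 1.95 at most in the rest of the window. Whether few expected reads raised its ratios was not tested. RefSeq places AZU1 and PRTN3, which encode related granule proteins, next to ELANE on the low side and CFD, which encodes complement factor D, on the high side. The bins that adjoin the ELANE bin were at 0 of 118 cells on both sides.

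LYZ encodes lysozyme, which cleaves bacterial cell walls. Its bin, chromosome 12 from 69700001 to 69800000, was in contact in 0 of 118 cells, with reads in 15 cells and a highest ratio of 0.975, just under the contact value, in cell 47. The surroundings of LYZ were uneven, unlike those of MPO and ELANE. On the high-coordinate side 34.9% ± 22.1 of the bins were in contact per cell, against 1.61% ± 5.84 on the low side (SD, n = 118). The difference was 33.3 ± 21.6 percentage points, with more contact on the high side in 103 cells, more on the low side in 0 and the same on both in 15. This held in both ranges of cell numbers, at 33.2 points for 1 to 94 and 33.6 points for 96 to 124.

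Within the window, the contact beside LYZ was concentrated in the 0.5 Mb from 70100001 to 70600000. Frequencies there were 35.6 to 73.7%, the highest in the bin that starts at 70500001, with 87 cells. A cell had 59.7% ± 34.4 of this stretch in contact, 30 cells had all of it and 15 cells none. The next 2 bins, the last of the window, were lower, at 14.4 and 25.4%. Contact did not end there. With flanks of 2 Mb, LYZ minus its flanks was -33.8 points, against -18.3 points at 1 Mb. The high side minus the low side was then 38.9 points. The flanks farther out thus held more contact than those within 1 Mb. LYZ itself was free in every cell, so the counts by cell describe its flanks alone. Its high side alone was in contact in 94 cells, both sides in 10 and neither in 14. YEATS4 and FRS2 are the next genes on the high side in RefSeq and CPSF6 and CPM the next on the low side.

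CTSG encodes cathepsin G, a serine protease stored with elastase in azurophil granules, and it stood apart from the other members in the order of frequencies. Its bin, chromosome 14 from 25000001 to 25100000, was in contact in 49 of 118 cells, or 41.5% (interval 32.5 to 51.0%). Of the usable bins of the genome 60.9% were lower, so this frequency is an ordinary one for the genome, and the mean of chromosome 14 was 31.5% with a median of 17.8%. The ratio at CTSG was 0 in the lowest cell, 0.840 in the median cell and 9.15 in the highest, cell 36. Reads were present in 89 cells, 615 in all and 24 at most in 1 cell.

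The values at CTSG spread across the contact value of 1 without a gap. The median ratio over the 49 cells in contact was 1.70, and 14 cells reached 2. At a contact value of 0.5 the frequency was 59.3%, with 70 cells, and at 2 it was 11.9%, so that it depended strongly on that value. In cells 1 to 94 the frequency was 34.4%, and 64.3% in cells 96 to 124. It stayed at 45.0% when each cell was thinned to 50000 reads, which left out 9 shallower cells, and at 45.2% without the 14 cells of under 3 reads at a ratio of 1. CTSG was also a narrow peak, since the mean over its bin and both adjoining bins was 24.3%.

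**Figure D2:**
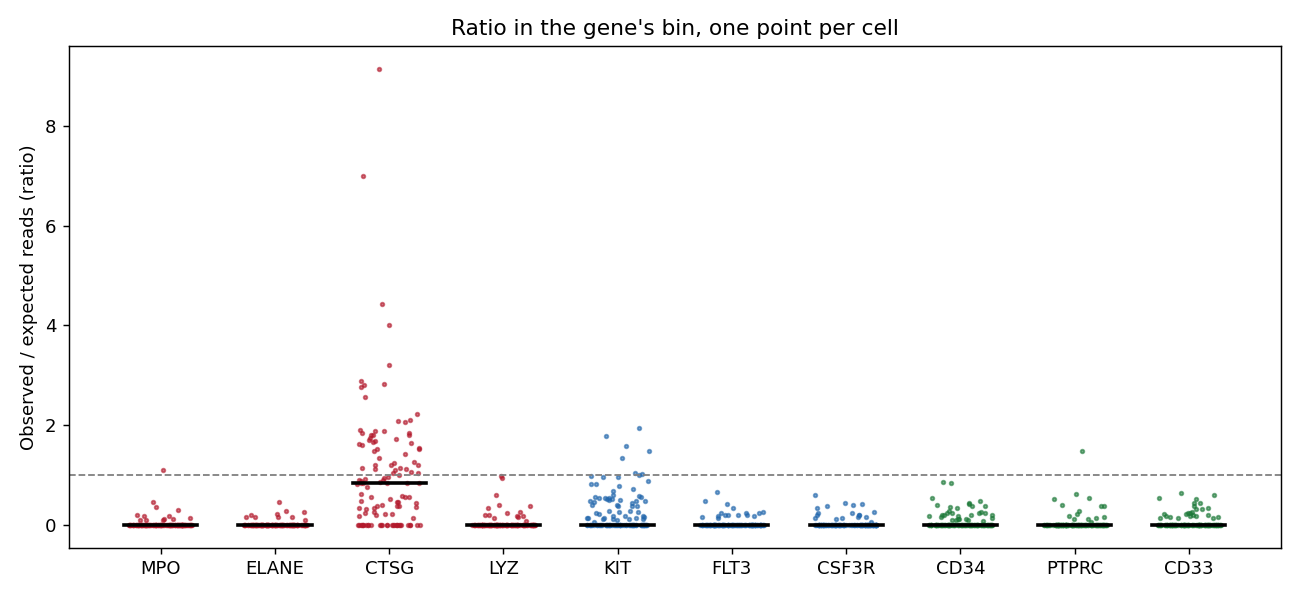
Ratio of observed to expected reads in the bin that holds each gene's midpoint (vertical axis), with 1 point per cell (118 cells per gene) and a black bar at the median. The dashed line is the contact value of 1. CTSG has a median of 0.840 and a highest value of 9.15, KIT has 8 cells above the line, MPO and PTPRC 1 each, and all points of the other genes are below it.

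CTSG lay at the edge between a sparsely and a more often contacted stretch. The sparse side was not free, with 18.6% of cells in contact at 0.8 Mb below CTSG. On its high-coordinate side 57.4% ± 33.5 of the bins were in contact per cell, and on its low side 5.42% ± 10.0 (SD, n = 118). The difference was 51.9 ± 31.4 percentage points, with more contact on the high side in 102 cells, more on the low side in 1 and the same in 15. The 0.9 Mb from 25200001 to 26100000 had 61.5% ± 35.5 in contact per cell, all of it in 27 cells and none in 15. By range of cell numbers, the high side was at 51.0% for 1 to 94 and 77.9% for 96 to 124. In RefSeq the next genes on the high side are GZMH and GZMB, which encode granzymes of cytotoxic lymphocytes, followed by STXBP6 and NOVA1, and the next gene on the low side is CMA1, which encodes mast cell chymase.

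The edge was not a single step. The bin 0.1 Mb below CTSG was in contact in 11.0% of cells and the bin 0.1 Mb above it in 20.3%, so CTSG exceeded both neighbours. CTSG was in contact without the lower neighbour in 38 cells and the lower neighbour without CTSG in 2. Against the upper neighbour these counts were 28 and 3 cells (90.3% of the cells that differed, interval 74.2 to 98.0%). From 0.2 Mb above, the frequency was 48.3% or more in each bin up to the end of the window. Against the bin at 0.2 Mb above, CTSG was in contact alone in 9 cells and that bin alone in 25.

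Contact at CTSG went with contact on its high side. In the 67 cells with more than 50% of the high side in contact, CTSG was in contact in 43 and free in 24. In the other 51 cells it was in contact in 6 and free in 45. The contact runs that held CTSG, unbroken series of bins in contact, had a median length of 0.2 Mb and a longest length of 3.2 Mb, in cell 65. A single bin made up 21 of the 49 runs, and 9 spanned at least 1 Mb. In 38 of the 49 cells the run did not extend to the low side at all, and the longest extension was 0.2 Mb to the low side, against 3.1 Mb to the high side. Relative to the mean of both flanks, CTSG was 10.1 ± 42.3 points higher, a difference smaller than the spread between cells. By cell, CTSG was below its flanks in 55, above them in 49 and equal in 14. The mean difference was -8.85 points with the mean of 3 bins in place of the CTSG bin and -3.31 points at a contact value of 2.

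The bins whose contacts were most like those of CTSG over the 118 cells were, within 10 Mb, chromosome 14 from 32700001 to 32800000 with a phi correlation of 0.476, and the bins at 0.1 and 0.2 Mb above CTSG with 0.471 and 0.450. Among 20399 bins farther away or on other chromosomes, the highest values were 0.430 for chromosome 14 from 62300001, 0.413 for chromosome 2 from 129800001 and 0.405 for chromosome X from 123500001. All bins of a cell share its depth and its contact share, so these correlations are descriptions. The distant values lie close below the near ones and are the top of a long list.

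Among the receptors, KIT was the one with contacts at the gene. KIT encodes the receptor for stem cell factor, which progenitors and mast cells need. Its first bin, chromosome 4 from 55500001 to 55600000, was in contact in 8 of 118 cells, or 6.78% (interval 2.97 to 12.9%), and its second bin, which holds the 3′ part of the gene, in 20 cells, or 16.9%. Both bins were in contact in 6 cells, the first alone in 2, the second alone in 14 and neither in 96. The ratio in the first bin was 0 in the lowest and the median cell and 1.95 in the highest, cell 97. Reads were present there in 58 cells, so that KIT was read more widely than the 8 genes at 1% or less, which had reads in 10 to 32 cells.

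KIT sat in a trough between modest peaks. The 3 bins just below it were at 29.7, 28.8 and 30.5%, and the bins at 0.2, 0.4 and 0.5 Mb above it were at 32.2, 28.8 and 31.4%. The frequencies returned to 0% at 0.6 Mb below and 0.847% at 0.7 Mb above, and farther out they reached 18.6% at 0.9 Mb below and 27.1% at 1.0 Mb above. In RefSeq the neighbours are the related receptor genes PDGFRA on the low side and KDR on the high side. The first KIT bin was in contact without the bin below it in 1 cell, and the bin below without KIT in 28. Against the bin at 0.2 Mb above, these counts were 0 and 30 cells.

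Over the whole window, the first KIT bin minus the mean of its flanks was -9.75 ± 23.5 points, smaller than the spread between cells. The bin was below its flanks in 67 cells, above them in 8 and equal in 43. With the mean of 3 bins in place of the first KIT bin, which then takes in the peak below and the second KIT bin, the value was 2.02 points above the flanks. The high side of KIT, its second bin included, had 19.2% ± 24.1 in contact per cell and the low side 13.9% ± 18.4. The difference was 5.25 ± 17.8 points, with more contact on the high side in 46 cells, more on the low side in 21 and the same in 51. The 2 sides moved together, with a Pearson correlation of 0.679 over the 118 cells, and 0.631 once each cell's contact share was regressed out. Runs that held KIT had a median length of 0.75 Mb and reached 1.1 Mb in cell 97, and 0 of the 8 were single bins. In 43 cells the whole window was free, and in 8 cells more than 50% of it was in contact.

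The KIT window was contacted more in the cells with high numbers. Its share was 11.8% for numbers 1 to 94 and 29.5% for numbers 96 to 124, and its second bin was in contact in 10.0% of the first range and 39.3% of the second. The ratio in the first bin was higher in cells with a higher contact share, with a Spearman correlation of 0.631 over all 118 cells, 0.589 within cells 1 to 94 and 0.581 within cells 96 to 124. It was also higher in cells with more reads, with 0.551, 0.527 and 0.529. The part of depth in this difference was not tested. Chromosome 4 as a whole had a mean frequency of 46.2%, and 23.6% of its bins were below the first KIT bin. The bins most like KIT within 10 Mb were those at 0.3, 0.1 and 0.2 Mb above it, with phi of 0.448, 0.417 and 0.391. The highest distant bins, all at 0.599, had 3 cells in contact each and carry little weight.

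**Figure D3:**
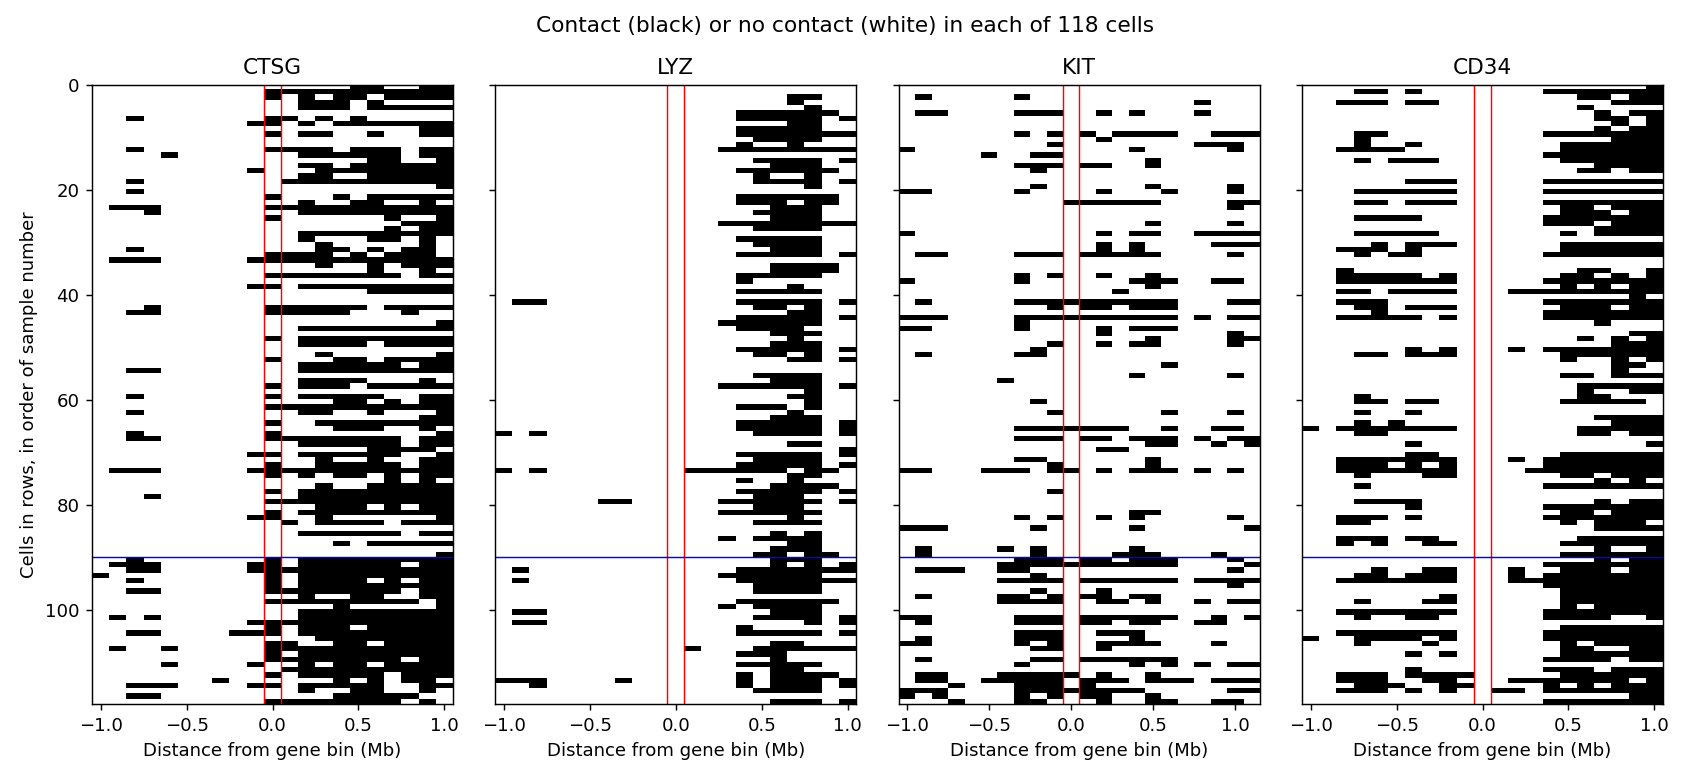
Contacts (black) in each of 118 cells (rows, in order of sample number) across the windows of CTSG, LYZ, KIT and CD34 (distance from the bin of the gene's midpoint in Mb, horizontal axis). Red lines enclose the gene's bin and the blue line separates cells 1 to 94, above, from cells 96 to 124, below. Contacts on the high side of CTSG seldom pass below its bin, those near LYZ lie mostly 0.4 to 0.8 Mb above it, those near KIT skip its first bin in most rows, and those around CD34 leave a white gap.

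FLT3 and CSF3R, the other receptors, were free of contact in all cells. FLT3 encodes the receptor for FLT3 ligand and is often mutated in acute myeloid leukaemia. Both of its bins, chromosome 13 from 28500001 to 28700000, were at 0 of 118 cells, with reads in 16 cells and a highest ratio of 0.664 in the bin of its midpoint. In the FLT3 window 17 of 22 bins were at 0. Contact appeared at the far high end, beyond the neighbours PAN3 and FLT1 in the gene order of RefSeq, and went from 0.847% at 0.7 Mb to 16.1% at 1.0 Mb, with 19 cells. That last bin was in contact in 10.0% of cells 1 to 94 and in 35.7% of cells 96 to 124.

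CSF3R encodes the receptor for granulocyte colony-stimulating factor. Its bin, chromosome 1 from 36900001 to 37000000, was at 0 of 118 cells with a highest ratio of 0.597, and reads were present in 18 cells. Of its 21 window bins 19 were at 0 and the other 2 had 1 cell each. The whole window was free in 116 cells.

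Among the surface proteins, CD34 lay in a local minimum, the deepest of the 10 genes with flanks of 1 Mb. CD34 encodes a sialomucin that marks haematopoietic stem and progenitor cells as well as blood vessel endothelium. Its bin, chromosome 1 from 208000001 to 208100000, was in contact in 0 of 118 cells. It was not unread, since 32 cells had reads, 89 in all, and the highest ratio was 0.868 in cell 100, the most deeply sequenced cell. CD34 minus the mean of its flanks was -31.5 ± 22.4 points. By range of cell numbers, it was -28.7 points for 1 to 94 and -40.7 points for 96 to 124.

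The free gap around CD34 was short and its edges were sharp. The 0.5 Mb from 207900001 to 208400000 had 2.54% ± 8.49 in contact per cell, and 107 cells had none. Just below it, at 0.2 Mb from CD34, 25.4% of cells were in contact, and frequencies went up to 39.8% at 0.7 Mb. On the other side the frequency was 29.7% at 0.4 Mb and 55.1% at 0.5 Mb, and it reached 78.0% at 1.0 Mb, with 92 cells. Since CD34 was free in every cell, the counts by cell describe its flanks alone. Both sides were in contact in 59 cells, the high side alone in 42, the low side alone in 1 and neither in 16. The 2 sides had a Pearson correlation of 0.602 over cells, and 0.549 with the contact share removed. In RefSeq the complement receptor and regulator genes CR2, CR1, CR1L and CD46 lie on the low side of CD34, and PLXNA2 is the next gene on the high side.

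The high side of CD34 had 43.5% ± 26.1 of its bins in contact per cell and the low side 19.6% ± 24.0. The difference of 23.9 ± 22.4 points came from the outer part of the window, since with flanks of 0.5 Mb it was -1.53 points. At 1 Mb the high side had more contact in 88 cells, the low side in 6, and 24 were equal. With flanks of 0.5 Mb, CD34 minus its flanks was -19.9 points, and with flanks of 2 Mb it was -28.1 points, against -33.8 points for LYZ.

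PTPRC and CD33 were almost without contact, in different surroundings. PTPRC encodes CD45, a tyrosine phosphatase on the surface of white blood cells. Its first bin, chromosome 1 from 198600001 to 198700000, was in contact in 1 of 118 cells, cell 37, with a ratio of 1.48 from 3 reads, and its second bin in 0. That contact too was gone without the 14 cells of under 3 reads at a ratio of 1. Within 1 Mb the surroundings of PTPRC were lightly contacted, more so on the low side. The high side, with the second PTPRC bin in it, had 1.69% ± 6.83 in contact per cell and the low side 8.90% ± 19.5. The difference was -7.20 ± 16.5 points, with more contact on the high side in 3 cells, less in 31 and the same in 84. With flanks of 2 Mb this difference was -22.5 points. PTPRC minus its flanks was then -11.7 points, against -4.45 points at 1 Mb. The highest bin was at the low end, 15.3% from 197600001, and the 4 bins that follow the first PTPRC bin were at 0. In cell 123, 63.6% of the window was in contact, and the mean window share was 3.18% for cells 1 to 94 and 10.7% for cells 96 to 124.

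CD33 encodes a sialic acid binding receptor of myeloid cells and lies among other SIGLEC genes, with SIGLEC9 and SIGLEC7 on its low side and SIGLECL1 on its high side in RefSeq. Its bin, chromosome 19 from 51700001 to 51800000, was at 0 of 118 cells. Reads were present in 25 cells, and the highest ratio was 0.638. Of 21 window bins 19 were at 0 and the other 2 had 1 cell each, as at CSF3R. At a contact value of 0.5 the bin of CD33 had a frequency of 3.39%.

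Set against their flanks, the 10 genes gave about as many differences as bins of the genome at large. The bin of 1 gene, CD34, was at least 20 points below the mean of its flanks, where 11.6% of all tested bins were. The bins of 0 genes were at least 20 points above, against 12% of all bins. The sides of 3 genes, CTSG, LYZ and CD34, differed by 20 points or more, against 35.5% of all bins. Each of these counts is near its share in the genome. At 10 points in place of 20, the counts were 2 genes below (20.6% of all bins), 1 above (24.5%) and 3 with unequal sides (52.8%). The median difference between a gene and its flanks was -1.21 points, against -0.13 points over all bins. Of all usable bins at 1% or less, 10.5% had flanks at a mean of 20% or more, as CD34 did.

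The distance from each gene to the nearest bin in contact on its chromosome separated the genes with similar frequencies. For 6 genes the median distance over cells was 1 Mb or more, against 30.8% of the usable bins, and for the other 4 it was 0.2 Mb at CTSG, 0.3 Mb at KIT, 0.45 Mb at CD34 and 0.5 Mb at LYZ. PTPRC followed at 1.4 Mb, MPO at 1.9 Mb and FLT3 at 3.5 Mb. CSF3R lay 11.6 Mb, CD33 19.1 Mb and ELANE 19.5 Mb from the nearest contact. For ELANE and CD33 this was over the 109 cells with any contact on chromosome 19, whose mean frequency was 2.95%. Of the usable bins 99.7% had a shorter median distance than either of them. The nearest contact lay on the high side of LYZ in 110 cells and of CSF3R in 91, and on the low side of PTPRC in 110 and of MPO in 103. At ELANE it lay on the high side in 102 cells. Only 0.8 Mb of chromosome 19 lies below that bin, so this direction was nearly fixed beforehand. In cells 96 to 124 the medians were shorter at several genes, for example 3.55 Mb at CSF3R, 7.9 Mb at ELANE and 1.15 Mb at FLT3, against 11.8, 19.7 and 4.8 Mb in cells 1 to 94.

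**Figure D4:**
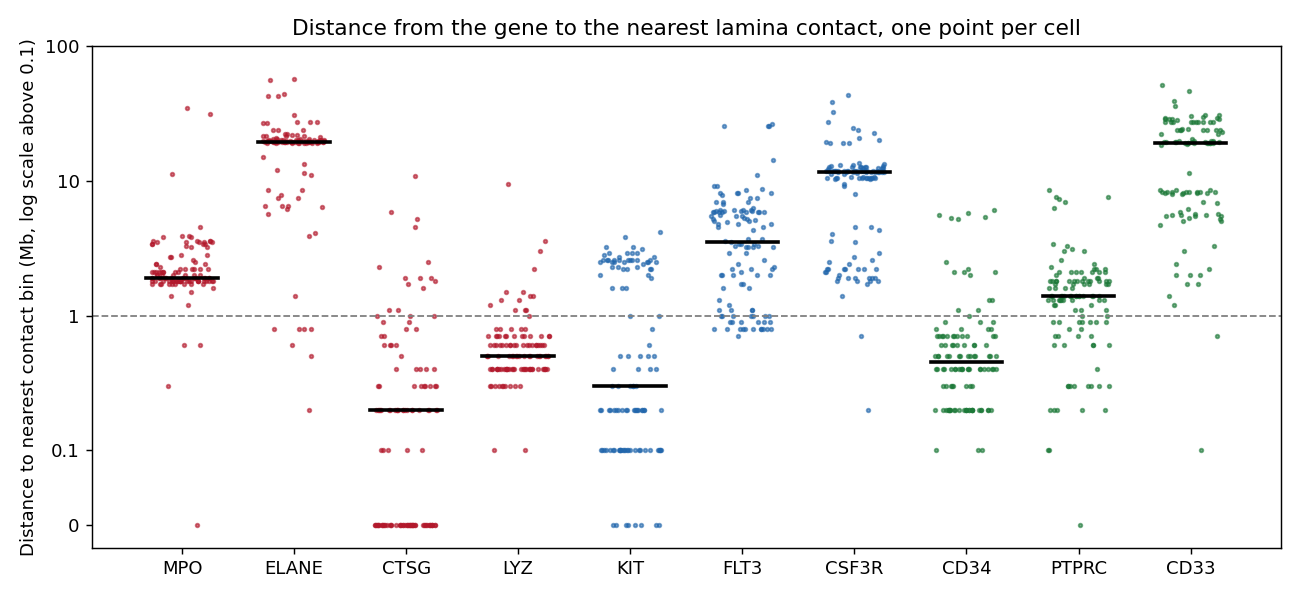
Distance from each gene to the nearest bin in contact on the same chromosome (Mb, vertical axis, linear below 0.1 and log above), with 1 point per cell that had contact on the chromosome and a black bar at the median. The dashed line is 1 Mb. CTSG, KIT, CD34 and LYZ have medians of 0.2 to 0.5 Mb, PTPRC, MPO and FLT3 of 1.4 to 3.5 Mb, and CSF3R, CD33 and ELANE of 11.6 to 19.5 Mb.

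Contact shares of the 10 windows were weakly correlated with each other over cells. With each cell's contact share regressed out, the Pearson correlation of window shares averaged 0.0357 over the 41 pairs on different chromosomes, from -0.184 to 0.261, with KIT and CD34 the highest. CD34 and PTPRC, 9.4 Mb apart on chromosome 1, had -0.109. ELANE and CD33, at opposite ends of chromosome 19, had 0.253, and PTPRC and CSF3R, 161.7 Mb apart, had 0.492. The CSF3R and CD33 windows had contact in 2 cells each, so these last values rest on very few cells.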

How the data were processed

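Single-cell DamID of LaminB1 was measured in haploid KBM7 cells of clone 14, amplified with 21 extension steps. The authors deposited 1 table with the ratio of observed to expected reads per 100 kb bin and cell. The unit comes from the name and values of the table, and the computation of expected reads was not given in the sources used here. Cutadapt, Bowtie2 2.1.0 and hg19 are named, per the submitters' processing notes, without further settings. Columns for 118 of 124 samples were used, and samples 33, 34, 44, 86, 95 and 120 were not analysed here. A profile of unfused Dam was not used here, so accessibility and contact cannot be told apart beyond the expected part.

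Bins without a number in any cell (3792) or at 0 in every cell (158) were left out. Whole reads were recovered, since the values are multiples of 1 constant per bin and 1 per cell, and 100% of the 1697706 values above 0 came out whole to a tolerance of 0.02 reads. The reads carry no molecular identifiers. Depth ran from 28372 to 385661 reads per cell, and a ratio of 1 stood for 1.17 to 15.9 reads in the median bin.

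The frequency of a gene is that of its midpoint bin, and KIT, FLT3 and PTPRC also overlap a second bin. Flanks are the usable bins within 1 Mb of the midpoint bin, with at least 5 per side for the 25883 bins used as background. The other gene bin of KIT, FLT3 and PTPRC therefore counts as part of a flank. A difference counted as a call at 20 points, a rule of size and not a test. Samples are single cells and the labels name no culture, so the cells form 1 group and SDs and intervals measure cells alone. All 10 genes are named, with the nearest RefSeq genes (GRCh38.p14, used for names, order and promoters, no position converted). The members, roles and rules were chosen with earlier results of these data known. Bins like CTSG and KIT were the 3 highest phi correlations within and beyond 10 Mb, for genes at 5 to 95%. Alternatives were other contact values, depths, sets of cells, bins per gene, flank widths and call sizes. Python 3.11.15, numpy 2.4.6, pandas 2.3.3, scipy 1.17.1 and matplotlib 3.10.9 were used.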

Additional observations from a re-analysis of the deposited data

How the results depend on the processing

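Of 310 values of 37 results under 10 alternative settings, 272 moved by less than 1 SD over cells or than their interval, or for counts by at most 1.5 times. For differences this rule is loose, since the SD over cells was 42.3 points for CTSG minus its flanks and 23.5 for KIT. The sign changes at CTSG and KIT given below count among the 272, so that number does not measure stability. Among the 180 differences, 14 values of 6 results had the opposite sign. In 1 of these the original difference was 20 points or more, the high side minus the low side of CD34, which was -1.53 points with flanks of 0.5 Mb. The others were CTSG minus its flanks, -3.31 points at a contact value of 2 and -8.85 with 3 bins per gene, KIT minus its flanks, 2.02 with 3 bins per gene, and differences at MPO and CD33 that started within 1 point of 0. Genes at 1% of cells or fewer numbered 8, and 4 at a contact value of 0.5, and genes at 0 cells numbered 6, and 1 at a contact value of 0.5 and 3 with 3 bins per gene. The alternatives of these 2 counts were chosen after seeing the data. The number of genes in contact in at least 20% of cells was 1 and became 2 at a contact value of 0.5, where KIT reached 22.9%, and 0 at a contact value of 2. Genes at least 20 points below their flanks numbered 1, and 2 at a contact value of 0.5, 0 at 2, 3 in cells 96 to 124, 0 with flanks of 0.5 Mb, 2 with flanks of 2 Mb and 2 with a call at 10 points, for which the share of all bins was 20.6%. Genes at least 20 points above their flanks numbered 0, but 1 in cells 96 to 124, where CTSG was 20.0 points above, and 1 with a call at 10 points, for which the share of all bins was 24.5%. Genes with sides 20 points apart numbered 3, and 1 at a contact value of 2 and 1 with flanks of 0.5 Mb. They numbered 2 at 50000 reads per cell and 4 with flanks of 2 Mb. At that width the high side of PTPRC minus its low side was -22.5 points. The mean contact share of the 10 windows, 10.3%, was 16.3% at a contact value of 0.5 and 4.52% at 2. LYZ minus its flanks was -33.8 points with flanks of 2 Mb. Shares of all bins were computed at the original settings. Among the alternatives they cover only the call at 10 points and, at a contact value of 0.5, the genes at 1% or fewer and at 0 cells. For the other alternatives, a change at the genes cannot be told from a change in all bins. The causes of the shifts were not tested. No paired analysis was possible because the labels give 1 group. Depth limits the low end: at the median of 5.63 reads for a ratio of 1, few reads decide a contact, and the single contacts at MPO and PTPRC rest on 2 and 3 reads.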
